A study of Mus musculus with 12 samples.

Results

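The Myc, Max and Mxd network was followed through 9 genes, Myc, Mycn, Max, Mxd1, Mxd3, Mxd4, Mxi1, Mnt and Mlx, on 12 one-colour Affymetrix expression arrays of B cells from mouse spleen. Its members were all probe sets that the array annotation assigned to 1 of these genes and to no other gene. This gave 21 probe sets for 9 of the 18193 genes named on the array. A log2 value above 4 on at least 3 arrays was required for testing, and 13 of the 21 probe sets, from 8 of the 9 genes, met this. The other 8 probe sets stayed between 2.23 and 4.14 on all arrays. They were all 3 of Mycn, 2 of Mxd3 and 1 each of Mxd1, Mxd4 and Mnt.

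The arrays formed 4 groups of 3. In Foxp1flox/del mice, Foxp1, the gene of a forkhead transcription factor of lymphocytes, had 1 deleted and 1 conditional (flox) allele, and their cells were taken after 4 h of incubation with IgM or without it. In Foxp1wt/flox mice the conditional allele stood beside a wild-type one, and their cells were likewise incubated with IgM or without it. The cells are called deleted cells and control cells here. All groups thus carried a conditional allele, came from a mixed 129/Sv-C57BL/6 background and were sorted for B220, a surface protein of most B cells. The labels give no Cre line, age or form of IgM. They do not say whether the conditional allele was recombined, or whether replicates came from separate animals, so the p-values reflect the spread among these arrays, which may be technical.

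Myc and its relative Mycn are transcription factors that bind DNA as pairs with Max, at the sequence called the E-box, and raise genes of ribosome production, nucleotide synthesis and metabolism. The Mxd proteins, Mxi1 and Mnt pair with the same Max and repress E-box genes through Sin3 complexes. Mlx is a Max-like protein that pairs with MondoA and ChREBP, sensors of sugar metabolism, and with some Mxd proteins and Mnt. In B cells, antigen receptor signalling is known to raise Myc, while Mxd genes are generally linked to rest and differentiation.

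Arrays of a group correlated at 0.951 or more across the brightest tested probe set of each gene. The exception was deleted IgM replicate 3, which correlated at 0.817 and 0.865 with its group mates. Calls of network members lost or gained without this array are given both ways, as are some of the differences, medians and list counts it moved. Foxp1 itself was read by 8 tested probe sets, and limma called 0 of the 8 between genotypes, with 0 at an unadjusted p under 0.05. The brightest had a median log2 value of 12.74 in deleted cells and 12.91 in control cells with IgM, and of 13.16 in deleted cells and 13.14 in control cells without it. The sources used here do not place these probe sets inside or outside the deleted stretch, so they do not check the genotype labels. Of 13 B cell markers, 12 were on the array and all 12 passed the filter. Cd79a, Cd79b and Ms4a1 were among those above 9 on all 12 arrays. Cd22, Cr2 and Pax5 fell below 9 on some arrays, with Pax5 at 4.82 to 9.155. Cd79a was at 9.025 on deleted IgM replicate 3, against 13.37 and 12.7 on its group mates. The mean of the 12 markers was 11.1 to 11.2 in deleted cells with IgM and 11.9 to 12.1 in deleted cells without it, and 10.9 to 11 in control cells with IgM and 11.9 to 12.1 in control cells without it. Cr2 went the other way, at 10.36 to 11.93 with IgM and 8.19 to 9.005 without it in deleted cells. In control cells Cr2 was at 9.61 to 10.44 with IgM and 8.18 to 9.22 without it. In such bulk samples, fewer cells of a type and less RNA per cell cannot be told apart.

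The E-box is the sequence that pairs of network proteins bind, so the promoters of the members were read for it. RefSeq promoters (assembly GRCm38.p6, 250 bases before to 50 after each annotated start) were at hand for 8 of the 9 genes, 10 promoters in all, and not for Myc. The E-box CACGTG, which reads the same on both strands, was present in 4 of the 10 promoters, those of Max, Mxd4, Mnt and Mlx, and in 7.15% of all 32851 promoters. A forkhead core motif, GTAAACA on either strand, was in 1 of the 10, a promoter of Mxi1, and in 3.65% of all promoters. The 60 bases around each E-box are shown to place it in the members whose levels follow, with the E-box in capitals and each sequence 5′ to 3′ on its gene's strand. Distances to an E-box are counted from the annotated start of its promoter. For Max, Mnt and Mlx that start is not the end of the gene span given below. A match is a description of the sequence and not a binding site. They lie at chr12:76962219-76962278 (Max, minus strand, E-box beginning 3 bases before the start), chr5:34187897-34187956 (Mxd4, minus strand, 219 before), chr11:74830774-74830833 (Mnt, plus strand, 123 before) and chr11:101087223-101087282 (Mlx, plus strand, 40 before).
Max: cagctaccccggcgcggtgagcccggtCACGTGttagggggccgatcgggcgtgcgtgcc
Mxd4: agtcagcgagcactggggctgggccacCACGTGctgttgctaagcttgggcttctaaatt
Mnt: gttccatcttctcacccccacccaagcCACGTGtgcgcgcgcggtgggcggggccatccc
Mlx: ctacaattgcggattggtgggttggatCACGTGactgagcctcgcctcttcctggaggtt

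The first question was how the network's RNA changed with 4 h of IgM. Myc rose several-fold in both genotypes, while 2 genes of Myc antagonists, Mxd4 and Mxi1, fell in both. Max, the shared partner, did not pass the test in either genotype, nor did Mxd3 or Mlx. Mnt, another antagonist, was higher on all IgM arrays than on all others. It did not pass in the main fit, and passed in both genotypes with the replicate number as a block. Among the Mxd genes, Mxd1 had 1 probe set that rose in control cells.

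Across the array, limma with Benjamini-Hochberg adjustment called 17.0% of 19187 probe sets in deleted cells and 18.2% in control cells at an adjusted p under 0.05. Of the 21 probe sets of the network, 13 of them tested, 5 were called in deleted cells, 1 higher and 4 lower, from 3 genes. In control cells 7 were called, 2 higher and 5 lower, from 4 genes. When the replicate number entered as a block, 7 were called in deleted cells, against 34.4% of all probe sets, and 9 in control cells, against 33.4%. The block added Mnt and a second probe set of Mxi1 in deleted cells, and Mnt and a second probe set of Mxd1 in control cells. With any 1 array left out 4 to 6 were called in deleted cells and 4 to 9 in control cells, the 4 without control IgM replicate 3 or without control replicate 2 or 3 of the cells with no IgM.

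**Figure D1:**
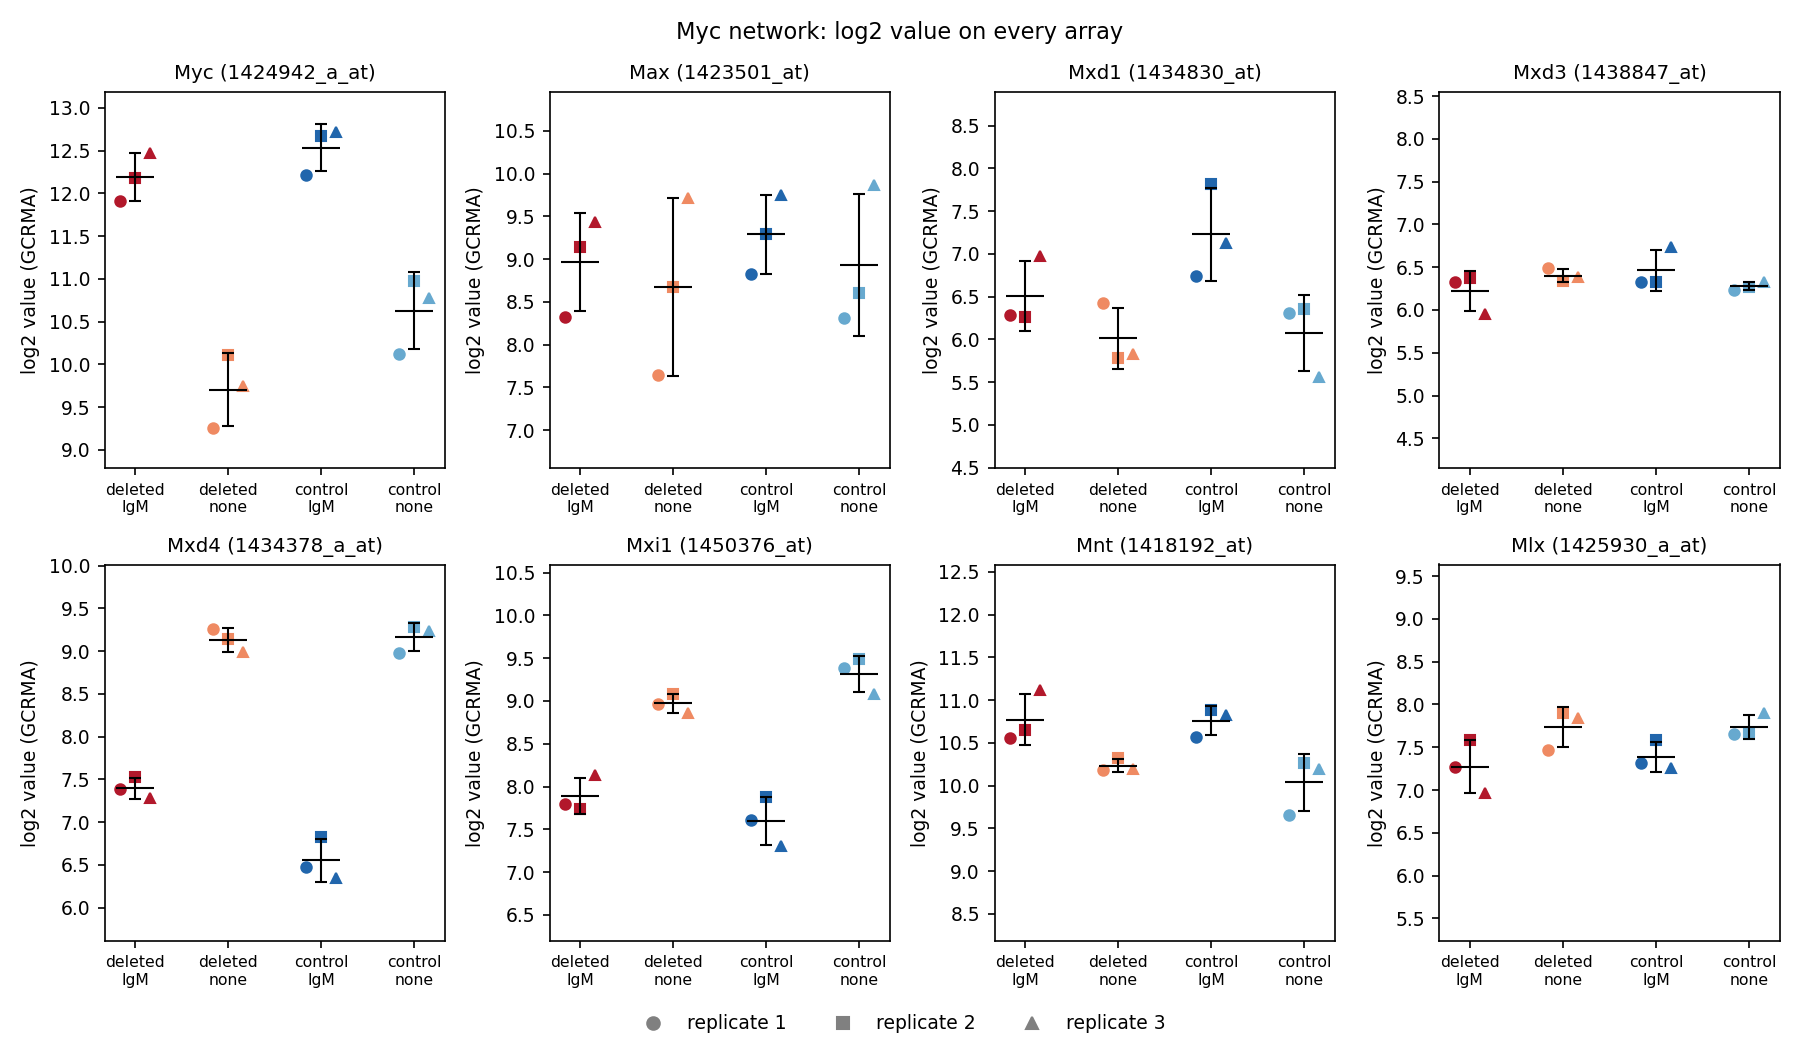
Log2 value (GCRMA) of the brightest tested probe set of 8 network genes on every array. Columns are the 4 groups, marker shapes the replicate numbers, and black bars the mean ± SD (n = 3). Each panel spans the same log2 range. Myc and Mnt lie higher and Mxd4 and Mxi1 lie lower on all IgM arrays than on all arrays without IgM, while for Max the arrays of replicate 3 lie highest.

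Myc (gene ID 17869, chr15:61985341-61990361) had log2 values of 11.91, 12.18 and 12.48 in deleted cells with IgM, against 9.26, 10.10 and 9.75 in deleted cells without it. In control cells they were 12.22, 12.67 and 12.71 with IgM, against 10.13, 10.98 and 10.78 without it. Every IgM array lay above every array without IgM, and the groups did not overlap. The rise was 2.49 ± 0.30 in deleted cells (log2 difference ± SE, 5.6-fold, limma adjusted p = 0.000543) and 1.90 ± 0.30 in control cells (3.74-fold, limma adjusted p = 0.00175). Within same-numbered samples Myc rose by 2.65, 2.08 and 2.73 in deleted cells and by 2.09, 1.69 and 1.93 in control cells. Without deleted IgM replicate 3 the rise in deleted cells was 2.34 (adjusted p = 0.001). The call in control cells was lost only when all 4 arrays of replicate 2 were left out (2.01, limma adjusted p = 0.0641).

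Mycn (chr12:12936093-12941836), the Myc paralogue best known from embryonic tissues and neuroblastoma, was near the array floor of 2.23. Its 3 probe sets ranged over 2.24 to 3.15, 3.12 to 4.14 and 3.28 to 3.97 across the 12 arrays. Differences at this level are compressed, so no change in Mycn was detectable here, and this does not show that it was absent.

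Max (chr12:76937269-76962323) had log2 values of 8.32, 9.14 and 9.44 in deleted cells with IgM, against 7.64, 8.67 and 9.72 without it. In control cells they were 8.83, 9.29 and 9.76 with IgM, against 8.32, 8.61 and 9.87 without it. The groups overlapped throughout, and the arrays of replicate 3, at 9.44 to 9.87, lay above all others, with 7.64 to 8.83 on those of replicate 1 and 8.61 to 9.29 on those of replicate 2. The IgM difference was 0.29 (95% interval -0.93 to 1.52, limma adjusted p = 0.757) in deleted cells and 0.36 (-0.86 to 1.59, adjusted p = 0.747) in control cells, and without deleted IgM replicate 3 the difference in deleted cells was 0.06. These intervals include changes as large as those of some genes called below. With the replicate block they were narrower, -0.26 to 0.84 in deleted cells and -0.19 to 0.91 in control cells. In neither fit was the partner of Myc shown to be constant.

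Mxd4 (chr5:34176580-34187710), one of the Max-binding repressors and a holder of an E-box in its promoter, fell with IgM on all 3 of its tested probe sets in both genotypes. Its brightest probe set was at 7.38, 7.52 and 7.28 in deleted cells with IgM, against 9.26, 9.14 and 8.99 without it. In control cells it was at 6.48, 6.83 and 6.35 with IgM, against 8.98, 9.28 and 9.23 without it. All IgM arrays lay below all others, and the control IgM arrays were the lowest 3 of the 12. The difference was -1.74 ± 0.20 in deleted cells (3.33-fold lower, limma adjusted p = 0.000391) and -2.61 ± 0.20 in control cells (6.11-fold lower, limma adjusted p = 5.4e-05).

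The second probe set of Mxd4 was at 4.93, 4.90 and 4.05 in deleted cells with IgM, against 6.90, 6.29 and 6.23 without it. In control cells its values were 4.41, 4.45 and 3.42 with IgM, against 6.63, 6.57 and 6.16 without it. No IgM array reached the others. The differences were -1.85 in deleted cells (limma adjusted p = 0.00507) and -2.36 in control cells (limma adjusted p = 0.00121). The third tested probe set ranged over 3.78 to 4.57 in deleted cells with IgM, against 5.31 to 5.87 without it, and over 4.24 to 4.27 in control cells with IgM, against 4.87 to 5.97 without it. It differed by -1.31 in deleted cells (adjusted p = 0.0142) and by -1.24 in control cells (adjusted p = 0.0176). Its call in control cells was lost without control IgM replicate 1, 2 or 3 (limma adjusted p = 0.0508, 0.0544 and 0.0571) and without control replicate 2 or 3 of the cells with no IgM (0.0702 and 0.0631). Its call in deleted cells was lost without deleted replicate 2 of the cells with no IgM (0.0585). For the brightest probe set, leaving out any single array kept both calls.

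Mxi1 (chr19:53310128-53373293), also known as Mad2 among the Max-binding repressors, fell as well. Its brighter probe set was at 7.79, 7.74 and 8.13 in deleted cells with IgM, against 8.97, 9.08 and 8.86 without it. Control cells had values of 7.61, 7.87 and 7.31 with IgM, against 9.39, 9.49 and 9.08 without it. All 6 IgM arrays were below the 6 others. The difference was -1.08 ± 0.22 in deleted cells (2.12-fold lower, limma adjusted p = 0.00666) and -1.72 ± 0.22 in control cells (3.30-fold lower, limma adjusted p = 0.000514). The call in deleted cells was lost when only the 2 groups compared entered the fit (limma adjusted p = 0.061) and when all 4 arrays of replicate 1 (0.129) or of replicate 2 (0.182) were left out.

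The dimmer probe set of Mxi1 was at 4.24, 5.90 and 6.66 in deleted cells with IgM, against 6.19, 7.14 and 6.67 without it. It was at 5.13, 5.92 and 5.56 in control cells with IgM, against 7.16, 7.69 and 7.51 without it. The deleted groups overlapped through replicate 3, whose values with and without IgM were almost equal, and the control groups did not overlap. In deleted cells the difference of -1.07 did not pass (limma adjusted p = 0.191), and it passed with the replicate block (0.044) and without deleted IgM replicate 3 (-1.60, 0.0374). In control cells it was -1.92 (adjusted p = 0.0259), and the call was lost without control IgM replicate 1 or 3 (0.0914 and 0.0737) or without any 1 of the 3 control arrays with no IgM (0.0536, 0.0826 and 0.0747).

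Mxd1 (chr6:86647044-86669234), the repressor first described as Mad, stood at 6.29, 6.26 and 6.98 in deleted cells with IgM, against 6.43, 5.79 and 5.83 without it. In control cells it stood at 6.75, 7.82 and 7.13 with IgM, against 6.30, 6.35 and 5.57 without it. The deleted groups overlapped and the control groups did not. The difference in deleted cells was 0.49 (95% interval -0.27 to 1.26, limma adjusted p = 0.365), and 0.26 without deleted IgM replicate 3. In control cells Mxd1 rose by 1.16 ± 0.35 (2.23-fold, limma adjusted p = 0.0408), a call that was lost in 13 of the 25 other fits tried. Single arrays whose omission ended it were control IgM replicates 2 and 3 (0.86, adjusted p = 0.153, and 1.21, 0.0915), the control arrays 1, 2 and 3 without IgM (0.0716, 0.0617 and 0.148), deleted IgM replicate 2 (0.0519) and deleted replicates 2 and 3 without IgM (0.0561 and 0.0535). The other tested probe set of Mxd1 ranged over 5.54 to 6.90 in deleted cells with IgM, against 5.53 to 5.69 without it, and over 6.25 to 7.86 in control cells with IgM, against 5.51 to 6.24 without it. It had a control difference of 1.3 (adjusted p = 0.0582, 0.0164 with the replicate block and 0.0296 without deleted IgM replicate 3). Its deleted difference was 0.64 (adjusted p = 0.337), and 0.31 without deleted IgM replicate 3.

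Mxd3 (chr13:55325170-55329900), a repressor known from proliferating precursor cells, lay within a narrow band. It was at 6.33, 6.38 and 5.96 in deleted cells with IgM, against 6.49, 6.33 and 6.38 without it. Control cells had values of 6.33, 6.33 and 6.74 with IgM, against 6.23, 6.27 and 6.33 without it. The groups overlapped in deleted cells, where 1 array was the lowest of the 12, and met at 6.33 in control cells. The difference was -0.18 in deleted cells (95% interval -0.62 to 0.25, limma adjusted p = 0.567) and 0.19 in control cells (-0.25 to 0.62, adjusted p = 0.602). The difference in deleted cells was -0.05 without deleted IgM replicate 3, the lowest array. Deleted IgM replicate 1, control IgM replicate 1 and control replicate 3 without IgM had the identical value of 6.3287. Whether this probe set lay above its own background was not tested. The narrow band therefore does not show a constant level of Mxd3.

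Mnt (chr11:74830806-74845725), the repressor that is present in most cells whether resting or dividing, was at 10.55, 10.65 and 11.11 in deleted cells with IgM, against 10.18, 10.32 and 10.20 without it. Control cells had values of 10.57, 10.88 and 10.83 with IgM, against 9.66, 10.26 and 10.20 without it. All IgM arrays were above all others, but the differences did not pass the test. They were 0.54 ± 0.23 in deleted cells (limma adjusted p = 0.142) and 0.72 ± 0.23 in control cells (limma adjusted p = 0.0529). With the replicate block both passed, at adjusted p of 0.0432 in deleted cells and 0.0124 in control cells, and without deleted IgM replicate 3 the control difference passed (0.0141). Mnt values were 1.45-fold higher with IgM in deleted cells and 1.65-fold higher in control cells.

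Mlx (chr11:101086707-101092207) lay at 7.26, 7.59 and 6.97 in deleted cells with IgM, against 7.47, 7.91 and 7.84 without it, by its brighter probe set. In control cells it lay at 7.31, 7.59 and 7.26 with IgM, against 7.65, 7.66 and 7.90 without it. The deleted groups overlapped and the control groups did not. The difference was -0.46 in deleted cells (limma adjusted p = 0.185) and -0.35 in control cells (adjusted p = 0.338). The other probe set differed by -0.51 in deleted cells (adjusted p = 0.299) and by -0.35 in control cells (adjusted p = 0.515), and deleted IgM replicate 3 was its lowest array, at 6.43. Without that array its difference in deleted cells was -0.10.

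**Figure D2:**
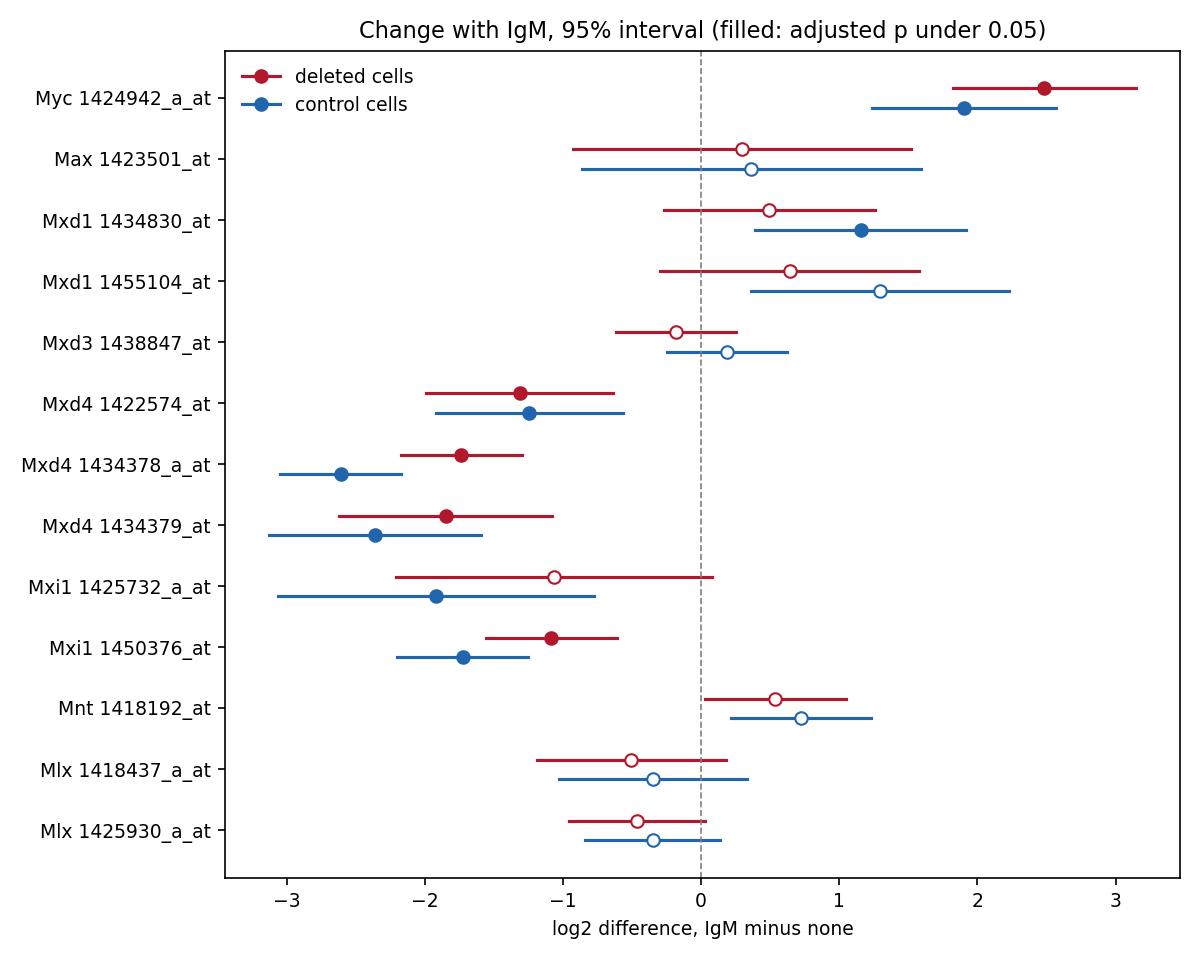
Log2 difference between cells with IgM and cells without it for the 13 tested probe sets, with 95% intervals, for deleted cells (red, upper line of each pair) and control cells (blue, lower line). Filled points have a limma adjusted p under 0.05. Myc is the only gene to the right of 0 with filled points in both genotypes, and the 3 probe sets of Mxd4 and the brighter one of Mxi1 are the filled pairs to the left.

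The second question was whether the Foxp1 genotype shifted the network. In cells without IgM 0 of the 13 tested probe sets differed, against 2.03% of all probe sets, and 1 had an unadjusted p under 0.05. With IgM 0 of the 13 differed, against 1.19% of all, and again 1 had an unadjusted p under 0.05. With the replicate number as a block 1 was called in each, against 5.36% of all probe sets without IgM and 4.80% with it. These were Myc without IgM and the brightest probe set of Mxd4 with IgM.

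Myc without IgM was lower in deleted cells in 3 of 3 same-numbered samples, by -0.87, -0.87 and -1.03. The values, 9.26 to 10.10 in deleted cells and 10.13 to 10.98 in control cells, did not overlap, by a narrow margin. The difference was -0.93 (95% interval -1.59 to -0.26, unadjusted p = 0.0106 in limma, adjusted p = 0.217), and with the replicate block its adjusted p was 0.0148. With array weights it was 0.0468. With IgM the difference in Myc was -0.34 (95% interval -1.01 to 0.32, limma adjusted p = 0.623), with overlapping groups and lower deleted values in 3 of 3 numbers.

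Mxd4 with IgM was higher in deleted cells in 3 of 3 numbers, by 0.90, 0.70 and 0.93 on its brightest probe set, and the groups did not overlap. The difference was 0.84 (95% interval 0.40 to 1.28, limma adjusted p = 0.0788), and with the replicate block the adjusted p was 0.0229. With array weights it was 0.00917. Without IgM the same probe set differed by -0.03 (95% interval -0.47 to 0.40). The other 2 tested probe sets of Mxd4 differed by 0.53 (adjusted p = 0.553) and -0.03 (adjusted p = 0.969) with IgM. Without deleted IgM replicate 3 they differed by 0.82 and 0.19, against 0.90 on the brightest. The second probe set was higher in deleted cells in 3 of 3 numbers, by 0.51, 0.46 and 0.63, while the third lay near the filter's level of 4 with IgM in both genotypes.

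Without IgM the 2 probe sets of Mxi1 were lower in deleted cells in 3 of 3 numbers, by -0.35 and -0.79 on average (limma adjusted p = 0.805 and 0.842). They were not called with the replicate block, and were with the block and without deleted IgM replicate 3 (0.0491 and 0.0276). With IgM, Mxd1 differed by -0.72 and -0.85 on its 2 tested probe sets (adjusted p = 0.448 and 0.473), and both were lower in deleted cells in 3 of 3 numbers. With array weights the brighter of them was called (-1.22, limma adjusted p = 0.0267). The 95% interval of Max was -1.48 to 0.97 without IgM, and with IgM it was -1.55 to 0.90, and with the replicate block these were -0.80 to 0.29 without IgM and -0.87 to 0.22 with IgM. With IgM Max was lower in deleted cells in 3 of 3 numbers, by -0.51, -0.15 and -0.32, and it was not called in either fit. The intervals of Mnt were -0.32 to 0.70 without IgM and -0.50 to 0.52 with IgM. Deleted IgM replicate 3 set the sign of 2 differences with IgM. The dimmer probe set of Mxi1 differed by 0.06, and by -0.47 without that array. The dimmer probe set of Mlx differed by -0.10, and by 0.31 without it. Neither was called in these fits.

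The difference between the genotypes in the IgM change itself was tested as an interaction, and 0 of the 13 probe sets passed, against 0.0990% of all probe sets, with 1 at an unadjusted p under 0.05. That was the brightest probe set of Mxd4, whose fall was smaller by 0.88 in deleted cells (95% interval 0.26 to 1.49, unadjusted p = 0.00997, limma adjusted p = 0.899). For Myc the interaction was 0.58 (95% interval -0.36 to 1.52, adjusted p = 0.968) and for the brighter probe set of Mxi1 0.64 (-0.04 to 1.31, adjusted p = 0.968). With the replicate block 0 passed and 3 had an unadjusted p under 0.05 in limma. They were Myc (0.0409), the brightest probe set of Mxd4 (0.00426) and the brighter one of Mxi1 (0.0449). Their adjusted p with the block was 0.541, 0.271 and 0.553. The larger rise of Myc and the smaller falls of Mxd4 and Mxi1 in deleted cells were therefore not shown to differ from control cells. The 2 IgM comparisons and the 2 genotype comparisons use the same 4 groups and share samples.

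**Figure D3:**
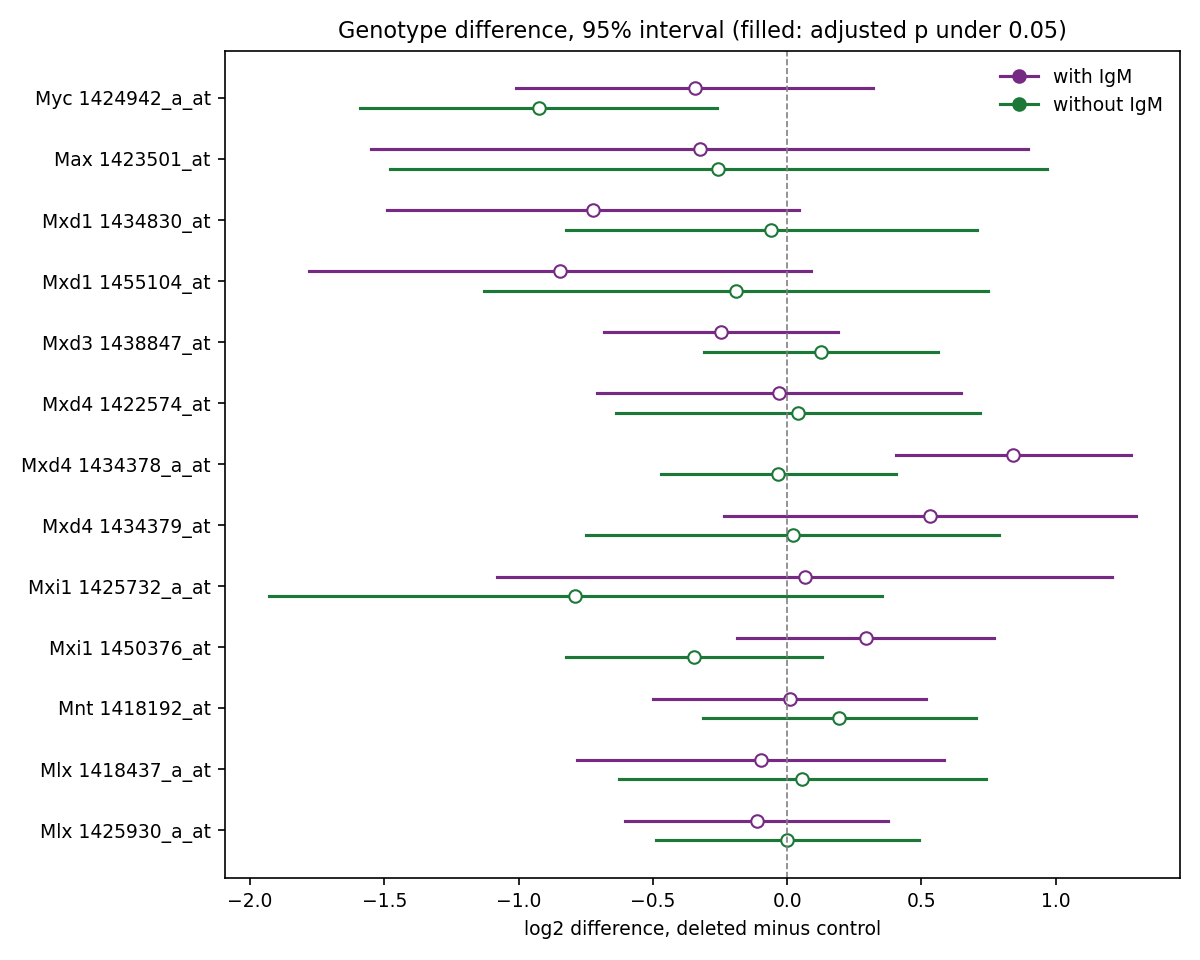
Log2 difference between deleted and control cells for the 13 tested probe sets, with 95% intervals, with IgM (purple, upper line) and without it (green, lower line). No point is filled, since none had a limma adjusted p under 0.05. The intervals that leave out 0 are those of Myc without IgM and of the brightest Mxd4 probe set with IgM.

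Markers of other cells had higher means in deleted cells for some lists, and their part in these differences was not tested. Of 15 neutrophil markers 13 were on the array, and their mean was 3.95 to 7.72 in deleted cells with IgM, 5.24 to 8.21 in deleted cells without it, 3.52 to 5.34 in control cells with IgM and 3.72 to 5.88 in control cells without it, while Cxcr2, Mmp8 and Mmp9 were above 4 on no array. Of 13 macrophage and monocyte markers 12 were on the array, with means of 3.76 to 4.63 in deleted cells with IgM, 3.85 to 4.68 in deleted cells without it, 3.16 to 3.57 in control cells with IgM and 3.34 to 3.82 in control cells without it, and Itgam, Mertk, Fcgr1, C1qa, C1qb and C1qc were above 4 on none. Of 25 genes of cycling cells 24 were on the array. Their mean was 7.28 to 7.43 in deleted cells and 6.12 to 6.80 in control cells with IgM, and 7.32 to 7.73 in deleted cells and 6.34 to 6.94 in control cells without it. Erythroid marker means, with Hba-a1, Klf1 and Epor above 4 on no array, were 3.39 to 4.46 in deleted cells and 3.11 to 3.3 in control cells with IgM, and 3.51 to 5.21 in deleted cells and 3.29 to 3.33 in control cells without it. Platelet marker means, over 5 genes with Itga2b and Gp9 above 4 on no array, were 2.9 to 4.3 in deleted cells and 2.85 to 3.39 in control cells with IgM, and 3.7 to 4.83 in deleted cells and 2.7 to 3.53 in control cells without it. Plasma cell marker means were 9.4 to 9.82 in deleted cells and 9.19 to 9.32 in control cells with IgM, and 8.97 to 9.36 in deleted cells and 9.23 to 9.5 in control cells without it. The ranges of the macrophage, cycling and erythroid lists did not overlap between genotypes in either condition. Those of the platelet list did not overlap without IgM, nor those of the plasma cell and B cell lists with it. T cell and NK cell marker means overlapped between genotypes with and without IgM.

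Partners and cofactors of the network are the machinery through which its members act, and 31 of 36 listed genes were measured. With IgM, 3 rose and 1 fell in deleted cells (median log2 difference 0.24, against 0.02 over all probe sets), and 2 rose and 1 fell in control cells (0.04, against -0.01). The median in deleted cells was -0.04 without deleted IgM replicate 3. The 4 partners called in deleted cells and 3 in control cells were not above the shares of all probe sets, 17.0% and 18.2%. Pim2, a kinase that stabilises Myc, fell by 1.68 ± 0.22 in deleted cells (limma adjusted p = 0.00067) and by 1.98 ± 0.22 in control cells (adjusted p = 0.000261). Ruvbl1, an ATPase of chromatin complexes that bind Myc, rose by 0.93 in deleted cells and 1.03 in control cells (adjusted p = 0.0236 and 0.0142). Wdr5, a histone methylation cofactor that anchors Myc to chromatin, rose by 0.94 in both (0.0176 and 0.0165). Kat2a, a histone acetyltransferase, rose by 1.02 in deleted cells (0.027), and its control difference was 0.42, not called. With any 1 array left out, 1 to 6 partners were called in deleted cells and 1 to 8 in control cells. The count in deleted cells was 2 or fewer without any 1 of the deleted arrays with no IgM. In control cells it was 1 without replicate 3 of either control group and 8 without deleted IgM replicate 3. No partner differed between genotypes at an adjusted p under 0.05 in limma. Ruvbl1 had -0.39 (0.809) and Fbxw7, a ubiquitin ligase subunit for Myc, 0.55 (0.97) without IgM, and Fbxw7 had 0.88 (0.467) and Pim2 0.54 (0.349) with it. The Fbxw7 difference with IgM was 0.46 without deleted IgM replicate 3.

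Genes known to be raised by Myc were measured for 58 of 64 listed. With IgM 17.0% of all probe sets were called in deleted cells, with a median of 0.02, and 18.2% in control cells, with a median of -0.01. Of this list 38 rose and 1 fell in deleted cells (median 1.20), and 34 rose and 2 fell in control cells (median 1.0). With any 1 array left out, 28 to 44 were called in deleted cells and 22 to 46 in control cells, with 22 or 23 there without control IgM replicate 2 or 3 or control replicate 1 or 3 of the cells with no IgM. Shmt1, an enzyme of one-carbon metabolism, rose by 3.23 ± 0.30 in deleted cells (limma adjusted p = 0.000134) and by 2.59 ± 0.30 in control cells (adjusted p = 0.000342). Polr1b, a subunit of RNA polymerase I, rose by 2.65 in deleted and 1.89 in control cells, and Slc16a1, a lactate carrier, by 2.55 in deleted and 1.70 in control cells (all 4 with adjusted p of 0.00235 or less). Nolc1, a nucleolar protein, rose by 2.46 in deleted cells (0.0184, and 0.0512 without deleted IgM replicate 3).

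The genes of this list that fell were E2f2, a cell cycle transcription factor, in both genotypes (-2.32 in deleted and -2.40 in control cells, the control value with adjusted p = 0.000305) and Prps2, an enzyme of nucleotide synthesis, in control cells (-1.04). The E2f2 value in deleted cells and Prps2 in control cells were picked out after their values were seen. Earlier results of these data were known when the list was drawn up, so its direction is not independent evidence.

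Between genotypes without IgM, 0 of the 58 genes raised by Myc passed in limma, with a median of -0.36 against -0.04 over all probe sets. With the replicate block 5 were lower in deleted cells and 0 higher, and without deleted IgM replicate 3 in the fit 5 were lower and 1 higher. With the block and without that array together, chosen after seeing the data, 29 were called, and with array weights 11. Nearest to the threshold were Nop58, a protein of small nucleolar ribonucleoproteins (-1.19 ± 0.27, adjusted p = 0.0518, 0.0047 with the block), and Odc1, the enzyme that starts polyamine synthesis (-0.78 ± 0.20, adjusted p = 0.0924, 0.0237 with the block). Nop58 had means of 9.78 ± 0.42 in deleted cells and 10.97 ± 0.34 in control cells (SD, n = 3). With IgM 0 of the 58 passed, with a median of -0.14 against 0.05 over all probe sets. Ppan, a ribosome assembly factor, had -0.83 (0.304) and Polr3d, a subunit of RNA polymerase III, had -0.55 (0.389).

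Genes known to be lowered by Myc were measured for 12 of 17. With IgM 0 rose and 3 fell in deleted cells (median -0.44), where 17.0% of all probe sets were called. In control cells, where 18.2% were called, 1 rose and 3 fell (median -0.02). Without deleted IgM replicate 3 the median in deleted cells was -0.14, with 1 that rose and 3 that fell. Those that fell in both genotypes were Cdkn1b, an inhibitor of cyclin-dependent kinases (-2.07 in deleted and -1.59 in control cells, limma adjusted p = 0.0159 and 0.0474), Gadd45a, a stress response gene (-1.63 in deleted and -2.38 in control cells, 0.0251 and 0.00353), and Ccng2, an atypical cyclin of resting cells (-1.25 in deleted and -1.87 in control cells, 0.00189 and 0.000204). Cdkn1b in deleted cells varied widely with IgM, 9.06 ± 1.24 (SD, n = 3), and without replicate 3 its difference was -1.35 (0.00418), while that of Gadd45a was -1.06 (0.0223). Ndrg1, a stress-regulated gene, rose by 0.96 in control cells (0.0141). With any 1 array left out, 1 to 5 genes of the list were called in deleted cells and 2 to 7 in control cells.

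Between genotypes 1 gene of this list was higher in deleted cells without IgM and 2 were with it, against 2.03% and 1.19% of all probe sets called. Cebpa, a transcription factor of myeloid cells, averaged 5.46 ± 1.06 in deleted cells and 2.78 ± 0.15 in control cells (SD, n = 3), a difference of 2.68 (limma adjusted p = 0.0154). The call was lost without deleted replicate 2 or any 1 of the 3 control arrays with no IgM. The control value is near the array floor. The Cebpa difference stands beside the higher means of the neutrophil and macrophage lists given above, whose part was not tested. The neutrophil ranges overlapped between genotypes. Without IgM, 0 of 10 tested neutrophil markers were called, and of 6 tested macrophage markers 1 was higher and 1 lower in deleted cells. With the replicate block, where 5.36% of all probe sets were called, 4 neutrophil markers were higher, and 3 macrophage markers were higher and 1 lower. With IgM, Pdgfrb, a growth factor receptor of mesenchymal cells, differed by 1.66 (adjusted p = 0.0469, and 0.0776 without deleted IgM replicate 3), again with a control mean near the floor of 2.70 ± 0.34. Ccng2 differed by 0.97 (adjusted p = 0.044), with means of 10.76 ± 0.22 in deleted cells and 9.80 ± 0.19 in control cells, so its fall with IgM ended at a higher level in deleted cells. Both calls were lost without any 1 of the 6 control arrays or without deleted replicate 2 of the cells with no IgM. Without any 1 of the other deleted arrays except deleted IgM replicate 3, 1 gene was called. Without deleted IgM replicate 3, 2 were called, Ccng2 (limma adjusted p = 0.0434) and 1 gene other than Pdgfrb.

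Targets of Mlx with MondoA or ChREBP were measured for 6 of 8. With IgM 2 rose and 0 fell in each genotype, with medians of 0.33 in deleted cells and 0.02 in control cells. Of all probe sets 17.0% were called in deleted cells and 18.2% in control cells. The 2 that rose were the fatty acid synthesis enzymes Fasn (1.70 in deleted and 1.92 in control cells, limma adjusted p = 0.0303 and 0.0168) and Acaca (1.68 in deleted and 1.52 in control cells, 0.0219 and 0.0322). Without deleted IgM replicate 3 neither passed in deleted cells (Fasn 1.34, 0.079, and Acaca 1.3, 0.0523), 1 other gene of the list was called lower, and the median in deleted cells was 0.03. With any 1 array left out, 0 to 2 were called in deleted cells and 0 to 3 in control cells. None was called in deleted cells without deleted replicate 1 or 3 of the cells with no IgM, and none in control cells without control IgM replicate 2 or 3 or control replicate 1 of the cells with no IgM. Between genotypes 0 of the 6 passed. Elovl6, a fatty acid elongase, had 1.19 (0.182, and 0.0195 with the block) and Scd1, a fatty acid desaturase, had -0.59 (0.3) without IgM, and with it Acly, which makes acetyl-CoA, had 0.70 (0.444) and Elovl6 0.55 (0.555). The Acly difference was 0.24 without deleted IgM replicate 3.

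Immediate response genes, the textbook readout of antigen receptor signalling, were measured for 14 of 15. With IgM 9 rose and 0 fell in deleted cells (median 1.3), where 17.0% of all probe sets were called. In control cells, where 18.2% were called, 10 rose and 0 fell (median 1.59). Without deleted IgM replicate 3, 12 rose in deleted cells and 11 in control cells. The orphan receptor gene Nr4a2 rose by 4.06 in deleted and 3.28 in control cells, and Nr4a3 by 3.34 in deleted and 2.32 in control cells. The zinc finger genes Egr2 and Egr1 rose by 3.86 and 3.04 in deleted cells and by 2.79 and 2.22 in control cells (all 8 with a limma adjusted p of 0.00312 or less). Without IgM 3 were lower in deleted cells, Nr4a2 (-2.27 ± 0.38, adjusted p = 0.00965), Nr4a3 (-1.87 ± 0.41, 0.0437) and Nr4a1 (-1.77 ± 0.20, 0.000906), and with the replicate block 6 were. The median of the list was -0.88, against -0.04 over all probe sets, of which 2.03% were called, or 5.36% with the block. Nr4a1 had means of 9.48 ± 0.16 in deleted cells and 11.25 ± 0.22 in control cells (SD, n = 3). With IgM 0 of the 14 passed, Fos having -1.08 (0.0926) and Nr4a2 -1.48 (0.1).

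Cycling cell genes were measured for 23 of 25. Few of them passed with IgM, when 17.0% of all probe sets were called in deleted cells and 18.2% in control cells. In deleted cells 1 rose, the replication licensing factor Mcm2 (1.06, limma adjusted p = 0.0333, and 0.0627 without deleted IgM replicate 3), and the median was -0.08. In control cells 2 fell, the mitotic kinase Aurkb (-2.05, 0.0144) and the ribonucleotide reductase subunit Rrm2 (-0.80, 0.0411), with a median of -0.13, and without deleted IgM replicate 3 there were 2 that rose and 2 that fell. Between genotypes 2.03% of all probe sets were called without IgM and 1.19% with it. Of this list 1 was higher in deleted cells without IgM, the cyclin Ccna2 (1.73, 0.0482), with a median of 0.94 against -0.04 over all probe sets. With IgM 2 were higher, the spindle protein Nusap1 (1.68, 0.0439) and Rrm2 (1.20, 0.0445), with a median of 1.15 against 0.05. Without deleted IgM replicate 3 those 2 calls were lost (0.0537 and 0.052), while 5 of the list were called without IgM. With the block the counts were 5 without IgM and 7 with it, and with any 1 array left out 0 to 5 without IgM and 0 to 1 with it. The single call without IgM was lost without 9 of the 12 arrays. The interaction called 0 genes in each of the 6 lists.

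**Figure D4:**
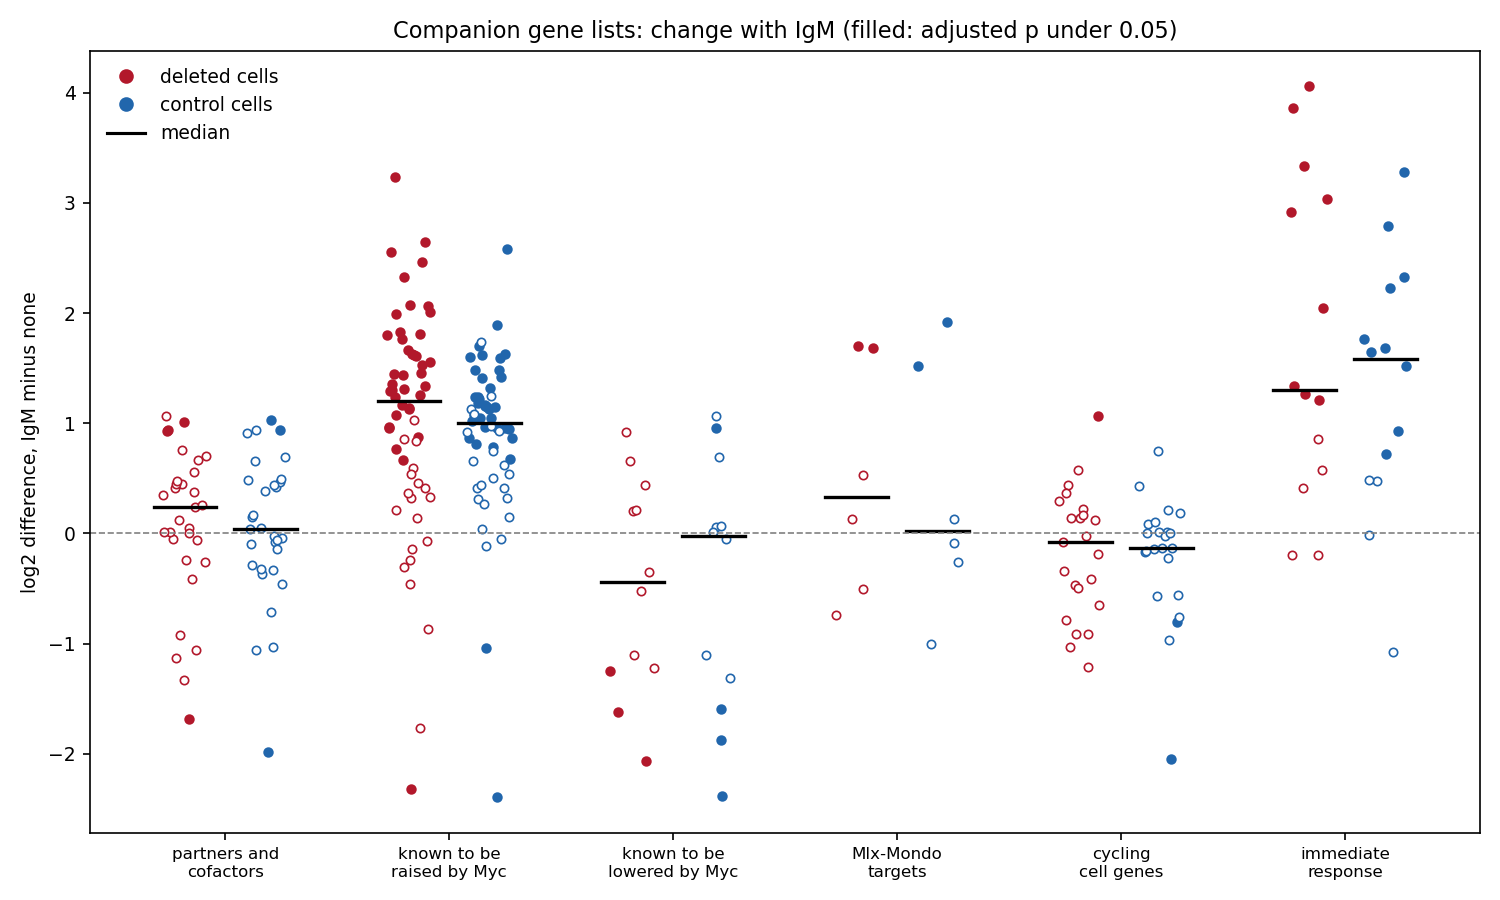
Log2 difference between cells with IgM and cells without it for each measured gene of 6 lists, in deleted cells (red, left) and control cells (blue, right). Filled points have a limma adjusted p under 0.05 and black bars are medians. Genes known to be raised by Myc have medians of 1.20 in deleted cells and 1.0 in control cells, and the cycling cell genes have medians of -0.08 in deleted cells and -0.13 in control cells.

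Genes whose values followed the members most closely were read by Pearson's r over the 12 arrays, which share stimulation, genotype and replicate number, so the coefficients are descriptions only. Closest to Myc were Slc7a1, a carrier of cationic amino acids (0.996), Aatf, a nucleolar protein (0.995), Nop56, a core protein of small nucleolar ribonucleoproteins (0.990), Pogk (0.990) and the pseudouridine synthase Pus7 (0.990). Over the 6 IgM arrays alone their r with Myc was 0.983, 0.853, 0.890, 0.938 and 0.792, and over the 6 arrays without IgM 0.978, 0.993, 0.978, 0.932 and 0.982.

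Mxd4 was followed most closely by Cnp, a nucleotide phosphodiesterase (0.996), Mxi1 by Prxl2c (0.979) and Mnt by Tnpo3, a nuclear import receptor (0.980). Over the 6 arrays without IgM these were 0.749, 0.791 and 0.955. For Mxd1 the closest was Akap1, an anchoring protein of protein kinase A (0.955), for Mlx Ccdc71 (0.935) and for Max the splicing factor Srsf5 (0.951). Mxd3, with the narrowest range, had the weakest match, Cox18, an assembly factor of cytochrome oxidase (0.818, and 0.628 without deleted IgM replicate 3).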

How the data were processed

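Values of 12 arrays (3 in each of 4 groups) were taken from the deposited series table. Per the submitters' processing notes, the authors made them with GCRMA, and the deposited values are on a log2 scale, read from a floor of 2.23 and a maximum of 15.79. Precision is limited by the number of arrays. The annotation gave 1 gene to 34945 probe sets, several for 932 and none for 9160. For 34741 probe sets the symbol was taken by gene identifier from a gene table of GRCm38.p6, whether or not it changed.

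The 19187 non-control probe sets with a log2 value above 4 on at least 3 arrays were fitted in R 4.3.3 by limma 3.58.1 (lmFit, contrasts.fit, eBayes), with 1 mean per group, two-sided tests and Benjamini-Hochberg adjustment over all of them at 0.05. Errors of differences are standard errors of this fit. For gene lists, each gene was read by its passing probe set with the highest mean (9293 genes). The shares and medians over all probe sets that stand beside the lists cover all 19187. These include further probe sets of a gene and probe sets with no gene, so the sets compared are unlike. All members are named. From each list up to 4 called genes with the largest difference are named, or, where none was called, the 2 with the smallest p, and others only as said. For the interaction, which called no gene of the lists, no list gene is named. The closest patterns were the 5 highest r for Myc and the highest for each other member. Members and lists were chosen with earlier results of these data known. The code was tested on simulated data with independent noise on each array. These had no shared effect of the replicate number and no outlying array, so the test does not cover calls that depend on either.

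Same-numbered arrays deviated from their group means together (correlations 0.174 to 0.847 in all 12 pairings). The labels do not say what the replicate number marks. The main fit left it out, and a fit with it as a block was run as an alternative. Alternatives covered the filter, normalization, variance model, array weights, replicate block, choice of probe set and left-out arrays.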

Additional observations from a re-analysis of the deposited data

How the results depend on the processing

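All 12 member differences called with limma kept their sign in 295 of 295 refits over the alternatives that could test them, and their call in 252. In many of these refits the estimate could not move. The filter, the variance model and arrays outside the compared groups do not enter it, so there the sign was fixed and only the call could change. Counts of called network probe sets are given for IgM in deleted cells, IgM in control cells, genotype with IgM and genotype without IgM, in that order, against 5, 7, 0 and 0. Leaving out 1 array or all arrays of a replicate number gave 1 to 6, 2 to 9, 0 to 0 and 0 to 0. The replicate block, which pairs samples by number, gave 7, 9, 1 and 1, and the block without deleted IgM replicate 3, chosen after seeing the data, gave 7, 11, 1 and 3. Array weights gave 6, 9, 2 and 1, the 2 being the brightest probe set of Mxd4 and a probe set of Mxd1. Without a filter 4 were called in control cells. With 1 probe set per gene 3 and 5 were called for IgM, and with only the compared groups in the fit 3 and 6. The interaction had 0 under every alternative run. Over all probe sets, calls ranged over 213 to 8810, 419 to 10940, 0 to 1568, 28 to 3194 and, for the interaction, 0 to 202, against 3260, 3483, 229, 389 and 19. Over the 25 alternatives, in the same order of comparisons, called genes raised by Myc ranged over 5 to 52, 2 to 54, 0 to 2 and 0 to 29, against 39, 36, 0 and 0. Network partners ranged over 0 to 16, 1 to 19, 0 to 1 and 0 to 4, against 4, 3, 0 and 0. Genes lowered by Myc ranged over 0 to 7, 1 to 8, 0 to 3 and 0 to 2, against 3, 4, 2 and 1. Mlx targets ranged over 0 to 3, 0 to 3, 0 to 0 and 0 to 2, against 2, 2, 0 and 0. Immediate response genes ranged over 5 to 12, 4 to 13, 0 to 6 and 0 to 14, against 9, 10, 0 and 3. Cycling cell genes ranged over 0 to 4, 0 to 6, 0 to 8 and 0 to 12, against 1, 2, 2 and 1. At signals near the floor, as for Mycn, a change could not be measured. The causes of these differences between fits were not tested.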
